A study of Caenorhabditis elegans with 12 samples.

Results

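The thaumatin family of Caenorhabditis elegans was followed across 4 groups of whole first-stage (L1) larvae of the wild-type strain N2. The members were the 6 genes thn-1 to thn-6, taken where the authors' deposited edgeR sheets list their symbol. Only thn-1 and thn-2 are in those sheets, so 2 of 6 met the rule, out of 44968 features counted. The sheets hold genes with more than 1 CPM (reads per 1000000 reads) in at least 3 libraries, per their notes, so the members were chosen by their measured level: a gene low in all groups could not enter. The other 4 genes have rows in the count files and are described with thn-7 and thn-8 as genes outside the rule.

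Embryos from bleached adults were plated at 5000 per plate and kept for 24 h at 25 °C on 1 of 4 combinations of NaCl and Escherichia coli OP50, the bacterium that serves as food. The groups are named here fed low-salt (100 mM NaCl with OP50), unfed low-salt (100 mM NaCl, no OP50), fed high-salt (500 mM NaCl with OP50) and unfed high-salt (500 mM NaCl, no OP50). Each has 3 biological replicates, lettered A to C. All groups share strain, temperature and time, and all are described as L1 larvae. How far the larvae of each group had developed was not measured. A difference in development between groups therefore cannot be told apart from a response to salt or food. Per the series title, the study is about L1 arrest under osmotic stress and starvation. RNA came from whole animals, so fewer cells of a type and less RNA per cell cannot be told apart.

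Thaumatin-like proteins are small secreted proteins, named after a sweet-tasting plant protein. In plants, relatives of thaumatin are made during infection, and several of them act against fungi. In C. elegans the thn genes carry the same domain, and transcripts of some have been reported among genes that respond to bacterial infection and to reduced insulin signalling. What the proteins do in the worm is little known.

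Reads on genes numbered 5613260 to 76542711 per library. Ribosomal RNA genes took 1.32% to 39.9% of them in 11 libraries and 81.8% in fed high-salt C. Alignment was poorest in unfed high-salt A, at 38.6% of reads, with 17.1% of the aligned ones outside genes. The other libraries had 70.1% to 91.3% and 1.87% to 5.90%. Levels are given as CPM of the library size after TMM scaling (mean ± SD, n = 3 libraries). Changes are log2 fold changes ± standard error (SE) from edgeR's quasi-likelihood test over 18028 genes, and a call means a p under 0.05 after Benjamini-Hochberg adjustment over these genes. The family was chosen with earlier results of these data known, so the p-values set each change against the spread between replicates and are not independent evidence.

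thn-1 and thn-2 lie on chromosome IV in a run of thn genes. In the RefSeq gene table of assembly WBcel235, counting protein-coding genes and pseudogenes, the order is thn-8, thn-1, thn-3, thn-2 and F28D1.6. thn-3 and thn-8 are listed there as pseudogenes, so the 2 protein-coding genes of the run are separated by a pseudogene. thn-5 and thn-6 are neighbours elsewhere on chromosome IV, and thn-4 is on chromosome V. thn-1 (F28D1.3, WBGene00009213) has 765 bases of annotated exon and thn-2 (F28D1.5, WBGene00009215) has 758, each in 2 exon blocks. Neither overlaps another annotated gene, and since their lengths are alike their read numbers can be set side by side.

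The level of thn-1 was lowest in fed low-salt larvae, higher when food was absent, and highest at 500 mM NaCl with or without food. Replicates A, B and C of fed low-salt larvae had 0.914, 0.538 and 0.529 CPM, from 15, 9 and 40 reads. Those of unfed low-salt larvae had 5.79, 6.47 and 7.26 CPM. Those of fed high-salt larvae had 40.7, 40.0 and 19.5 CPM, against 17.7, 22.9 and 37.3 CPM in unfed high-salt ones. Every unfed low-salt library was above all fed low-salt libraries, and every high-salt library was above all low-salt ones, while the fed and unfed high-salt groups overlapped. The place of fed high-salt C in that order rests on the scaling. Per 1000000 reads on all genes, with no TMM factor, it had 5.52 CPM of thn-1, under the 7.19 to 7.89 CPM of the unfed low-salt libraries, and with rRNA genes left out of the total it had 30.3 CPM, above their 7.71 to 8.21. The group means were 0.660 ± 0.220, 6.51 ± 0.735, 33.4 ± 12.04 and 25.98 ± 10.1 CPM in that order. Among fed high-salt libraries the low one was C, the library rich in ribosomal RNA. Among unfed high-salt libraries the low one was A, the library with few aligned reads.

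thn-2 had another order of groups. It was high in unfed low-salt larvae and low in the other 3 groups. Replicates A, B and C had 4.88, 2.87 and 4.10 CPM with food and 24.5, 38.3 and 65.3 CPM without food at 100 mM NaCl. At 500 mM NaCl they had 4.30, 4.97 and 2.23 CPM with food and 2.65, 1.83 and 3.64 CPM without. The unfed low-salt libraries were all above the other 9, and those 9 overlapped between their groups. The unfed low-salt replicates also spread most, at 42.7 ± 20.7 CPM, against 3.95 ± 1.01 in fed low-salt, 3.83 ± 1.43 in fed high-salt and 2.71 ± 0.904 in unfed high-salt larvae.

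**Figure D1:**
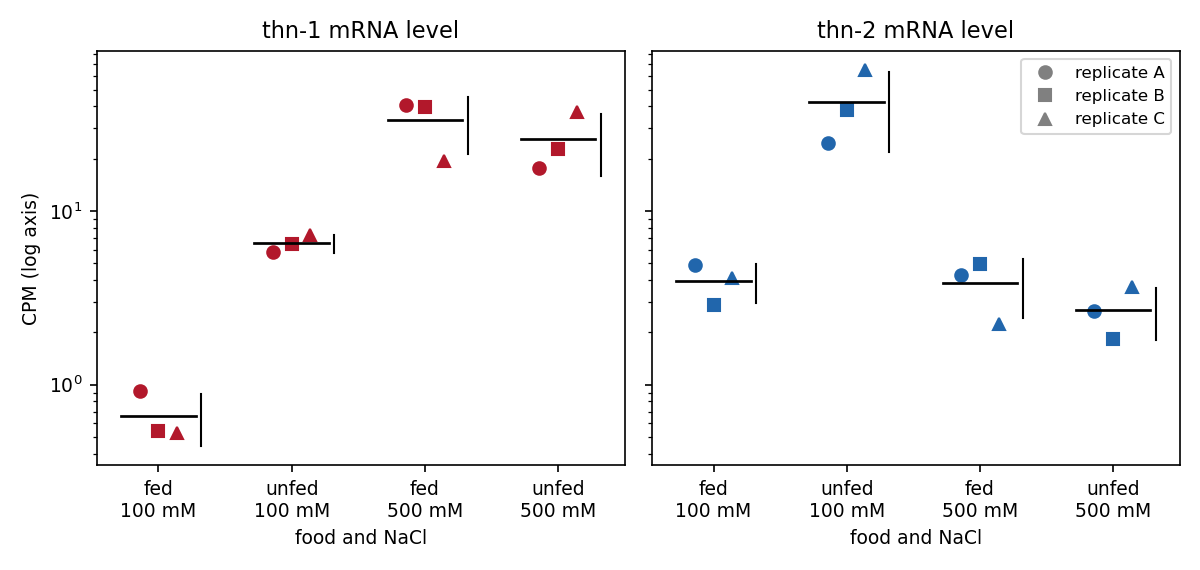
CPM of thn-1 and thn-2 in each of 12 libraries by group, on a log axis, with points for libraries and bars for the mean and SD of 3 libraries. thn-1 climbs from a mean of 0.660 CPM in fed low-salt larvae to 33.4 and 25.98 CPM in the high-salt groups, while thn-2 is high only in unfed low-salt larvae, at 42.7 CPM.

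Lack of food at 100 mM NaCl was followed by a rise of both genes by nearly the same factor. thn-1 rose by 3.35 ± 0.39 on the log2 scale, or 10.2-fold (adjusted p = 0.000554). thn-2 rose by 3.43 ± 0.40, or 10.8-fold (adjusted p = 0.000554). Among all genes tested 7.68% were called in this comparison. As higher, 3.57% were called, and 20.9% had unfed libraries all above the fed ones, as both thn genes did. In order of log2 fold change from the highest, thn-2 held rank 320 and thn-1 rank 358 of 18028. The median over all genes was 0.15.

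Salt in the presence of food separated the genes. thn-1 rose by 5.72 ± 0.41, or 52.6-fold (adjusted p = 8.50e-07), and held rank 89 from the highest. thn-2 stood at 0.01 ± 0.39 and was not called (adjusted p = 0.982). Salt with food had the most calls of the 6 comparisons, 38.3% of all genes. High-salt libraries were all above low-salt ones for 30.4% of genes, thn-1 among them. Without fed high-salt C, the library rich in ribosomal RNA, the change of thn-1 was 5.90 and that of thn-2 was 0.15.

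Salt in the absence of food moved them in opposite directions. thn-1 rose by 2.001 ± 0.337, or 4.003-fold (adjusted p = 0.000590). thn-2 fell by 3.98 ± 0.42 on the log2 scale, or 15.8-fold (adjusted p = 1.05e-05), and held rank 272 from the lowest of 18028. In this comparison 17.9% of genes were called, 6.72% higher and 11.2% lower, and groups did not overlap for 12.3% of genes in the higher and 16.8% in the lower direction. Without unfed high-salt A, the library with few aligned reads, the changes were 2.21 and -3.97.

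At 500 mM NaCl the absence of food left no call for either gene. The log2 fold change was -0.37 ± 0.32 for thn-1 (adjusted p = 0.788) and -0.56 ± 0.40 for thn-2 (adjusted p = 0.744). Calls were rare in this comparison, at 0.0777% of all genes. The groups overlapped for both genes, and they did not for 10.2% of all genes.

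The effect of food therefore depended on salt for both genes, and this difference was itself tested. The interaction, which is the log2 change on lack of food at 500 mM minus that at 100 mM NaCl, was -3.72 ± 0.50 for thn-1 (adjusted p = 0.00419). For thn-2 it was -3.99 ± 0.56 (adjusted p = 0.00479). Over all genes 0.433% had a called interaction below 0, as both thn genes did. From the lowest, thn-2 held rank 211 and thn-1 rank 286 of 18028. The values are alike, but the levels behind them differ. thn-1 was high with salt whether or not food was present, and thn-2 was low with salt whether or not food was present.

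Fed high-salt larvae and unfed low-salt larvae were also set against each other. thn-1 was higher under salt, by 2.37 ± 0.34 or 5.17-fold (adjusted p = 0.000155). thn-2 was lower under salt, at -3.42 ± 0.41, a 10.7-fold difference (adjusted p = 3.53e-05). Of all genes 21.5% were called between these groups, 7.04% as higher and 14.5% as lower under salt. The groups did not overlap for 16.7% of genes in the higher and 23.3% in the lower direction, thn-1 and thn-2 included. All comparisons use the same 4 groups and share libraries, so their results are not independent of each other.

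**Figure D2:**
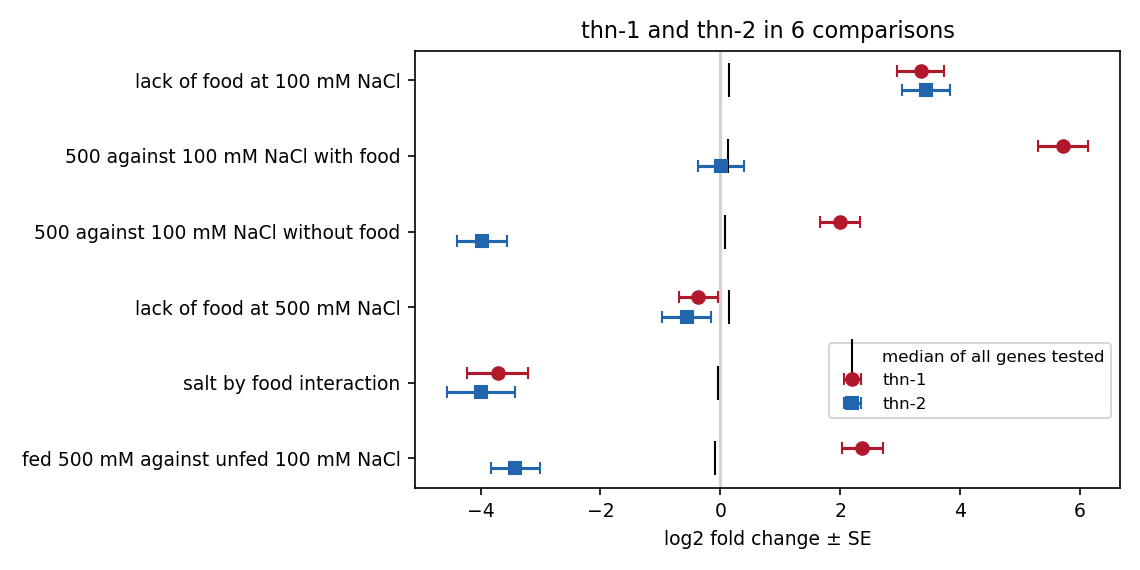
Log2 fold change of thn-1 and thn-2 with its SE in the 6 comparisons, from edgeR's quasi-likelihood test, with a mark for the median of all 18028 genes. The genes lie together for lack of food and for the interaction, at 3.35 and 3.43 and at -3.72 and -3.99, and apart in the comparisons of salt.

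Which of the neighbouring genes gave more reads depended on salt in all 12 libraries. Of the reads on thn-1 and thn-2 together, thn-1 had 15.8%, 15.8% and 11.4% in replicates A, B and C of fed low-salt larvae. In those of unfed low-salt larvae it had 19.1%, 14.4% and 10.0%. At 500 mM NaCl its share was 90.4%, 88.9% and 89.7% with food and 87.01%, 92.6% and 91.1% without. The low-salt libraries thus lay between 10.0% and 19.1% (median 15.1%, n = 6) and the high-salt libraries between 87.01% and 92.6% (median 90.1%, n = 6), with no library between. The exact 95% binomial interval was widest in fed low-salt B, from 7.48% to 27.9% on 57 reads, and it covers counting error only.

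The share needs no library scaling, since both counts come from the same library. It does depend on how reads that match several thn genes were counted, which the sources used here do not say. The deposited counts list 0 reads as not uniquely aligned, which does not tell how such reads were treated. Fed and unfed means differed by less than their spread at either salt level. The mean was 14.3 ± 2.52% in fed and 14.5 ± 4.55% in unfed low-salt larvae, and 89.7 ± 0.747% in fed and 90.2 ± 2.89% in unfed high-salt larvae. In reads, thn-2 exceeded thn-1 by 4.23 to 8.99 times in low-salt libraries, and thn-1 exceeded thn-2 by 6.70 to 12.5 times in high-salt libraries. Per kilobase of exon, thn-2 in unfed low-salt larvae (56.3 ± 27.3 CPM per kb) and thn-1 in fed high-salt larvae (43.7 ± 15.7 CPM per kb) were the highest levels, within each other's spread. Over all 12 libraries the log2 CPM of both genes had a Pearson's r of -0.10 and a Spearman's rho of -0.16, given as a description because the libraries fall into groups.

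**Figure D3:**
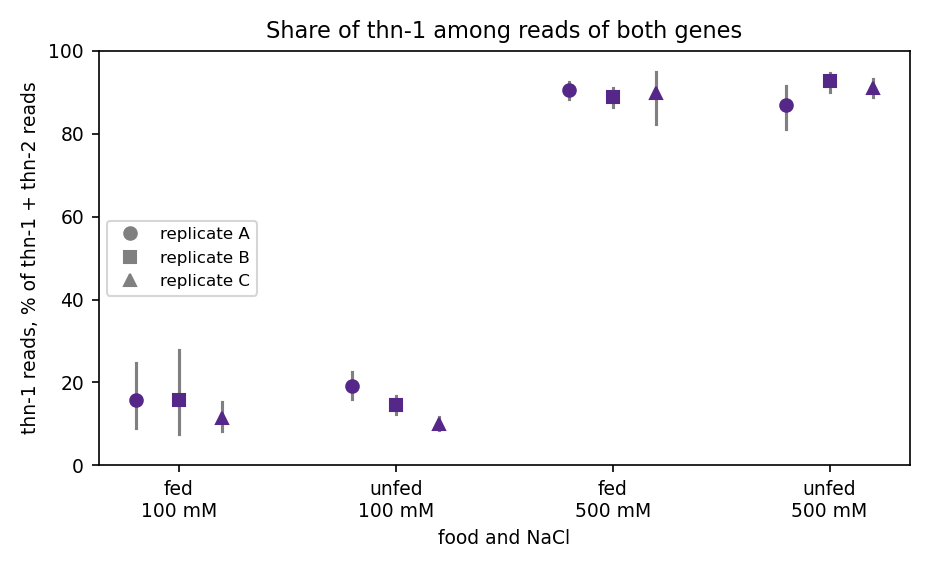
Share of thn-1 in the reads on thn-1 and thn-2 together, in percent, for each of 12 libraries by group, with exact 95% binomial intervals for counting error. The 6 low-salt libraries lie between 10.0% and 19.1% and the 6 high-salt libraries between 87.01% and 92.6%, with or without food.

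The same changes in the authors' deposited table, made with edgeR's exact test, were close to these. Unfed over fed at 100 mM NaCl stood there at 3.39 for thn-1 and 3.46 for thn-2 on the log2 scale. The deposited table gives 100 over 500 mM NaCl with food as -5.79 for thn-1 and -0.08 for thn-2, and without food as -2.02 and 3.95. Unfed over fed at 500 mM NaCl is -0.38 and -0.56 in the deposited table.

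The remaining members were near the limit of detection. In total reads the last genes inside the rule and the first outside it lay far apart. By the sheets' own criterion thn-3 was close, with 2 libraries over 1 CPM where 3 are required. thn-1 exceeded 1 CPM in 9 libraries with 3272 reads in all, and thn-2 in 11 libraries with 3283 reads. thn-3 (F28D1.4), the pseudogene between them, exceeded 1 CPM in 2 libraries and had 83 reads. thn-4 (F49A5.6), thn-5 (Y59E9AR.4) and thn-6 (Y59E9AL.1) each did so in 1 library, with 35, 42 and 29 reads. None of these 4 passed the filter on low counts, so no change was tested for them.

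Their few reads were spread unevenly over libraries. Together with thn-7 (Y59E9AR.6), a further pseudogene with 20 reads, 86 reads or 41.1% came from unfed high-salt A, the library with few aligned reads and many outside genes. Another 45 reads, or 21.5%, came from unfed low-salt A. Unfed low-salt C and unfed high-salt C had 0 reads on all 5 genes, and the 3 fed low-salt libraries had 3, 1 and 8. thn-6 had 0 reads in fed low-salt larvae. In replicates A, B and C of fed high-salt larvae thn-3 stood at 0.376, 0.485 and 0.406 CPM, from 7, 8 and 2 reads, above the 0 to 0.0397 CPM of fed low-salt larvae. The part of library quality in these values was not tested. thn-5 overlaps the annotated RNA gene Y59E9AL.37, and the libraries do not keep strand, so reads of these 2 genes cannot be told apart.

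**Figure D4:**
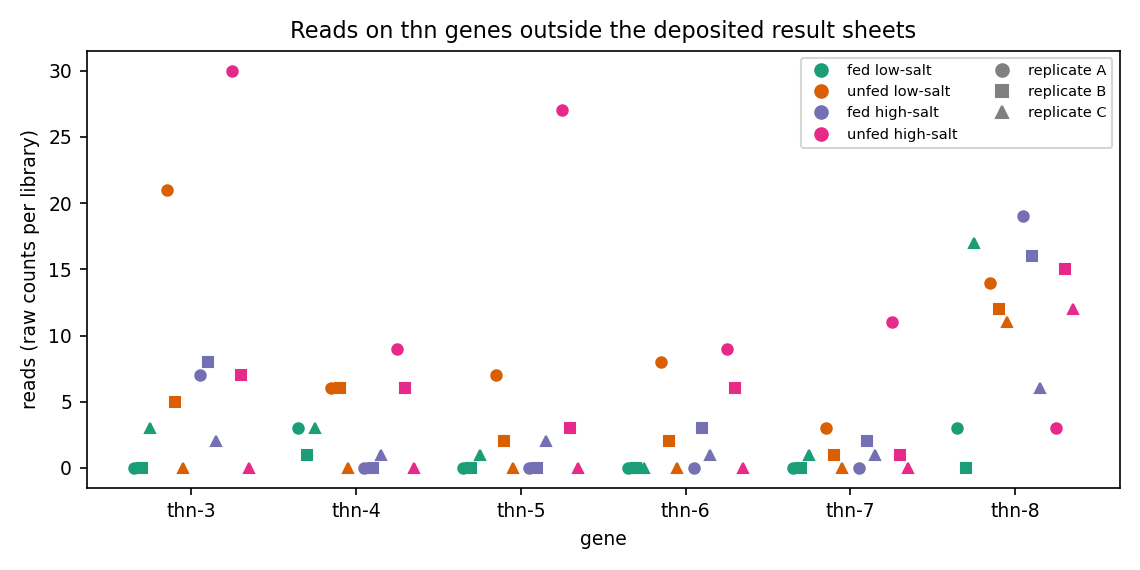
Reads on thn-3 to thn-8 in each of 12 libraries by group. Of the reads on thn-3 to thn-7, unfed high-salt A holds 86 and unfed low-salt A holds 45, while unfed low-salt C and unfed high-salt C hold 0.

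thn-8 (F28D1.12), the pseudogene beside thn-1 and no member, passed the filter with 128 reads. Its level was 0.136 ± 0.120 CPM with food and 0.611 ± 0.0869 without at 100 mM NaCl, and 1.07 ± 0.131 with food and 0.575 ± 0.199 without at 500 mM NaCl. It rose with salt in the presence of food by 2.83 ± 1.06 on the log2 scale (adjusted p = 0.0454), a call lost in 13 of 21 alternative settings, among them each of the 6 that leave out a compared library (adjusted p 0.00556 to 0.204 over the 21). On lack of food at 100 mM NaCl its change was 2.03 ± 1.03 (adjusted p = 0.217). thn-1, thn-2, thn-3 and thn-8 may share reads if their sequences are alike. The sources used here do not say how the authors' counting treated reads with several matches, so the low values are uncertain.

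The genes around the run were tested in the same fit. Of 15 neighbours outside the family 14 were tested. On lack of food at 100 mM NaCl 0 of them were called by edgeR's quasi-likelihood test, with 2 at an unadjusted p under 0.05 and log2 fold changes from -1.32 to 1.77, where 7.68% of all genes were called. With salt and food 2 of 14 were called, both lower, against 38.3% of all genes, which were rps-23, a small-subunit ribosomal protein gene, and acs-20, an acyl-CoA synthetase gene. With salt and no food best-22, a bestrophin channel gene, was called higher at 0.99 ± 0.25 (adjusted p = 0.0109), and rps-23 and acs-20 were again called lower, 3 of 14 beside 17.9% of all genes. Without food the call of best-22 was lost when unfed low-salt B (adjusted p = 0.0561) or unfed high-salt C (0.0894) was left out, that of rps-23 without unfed low-salt B (0.134) or unfed high-salt B (0.0643), and that of acs-20 without unfed low-salt C (0.0879). For the interaction 0 of the 14 were called, beside 360 of all 18028 genes, and 2 had an unadjusted p under 0.05. The gene next to thn-2, F28D1.6, stood at 0.61 ± 0.38 on lack of food at 100 mM NaCl (adjusted p = 0.309), where thn-2 rose 10.8-fold. Between fed high-salt and unfed low-salt larvae 3 of the 14 were called by the same test, all lower under salt. Of all genes 21.5% were called there, 14.5% as lower. The 3 were F28D1.6, at -1.40 ± 0.40 (adjusted p = 0.0186), rps-23 and acs-20. In that comparison thn-2 was lower too, at -3.42 ± 0.41.

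**Figure D5:**
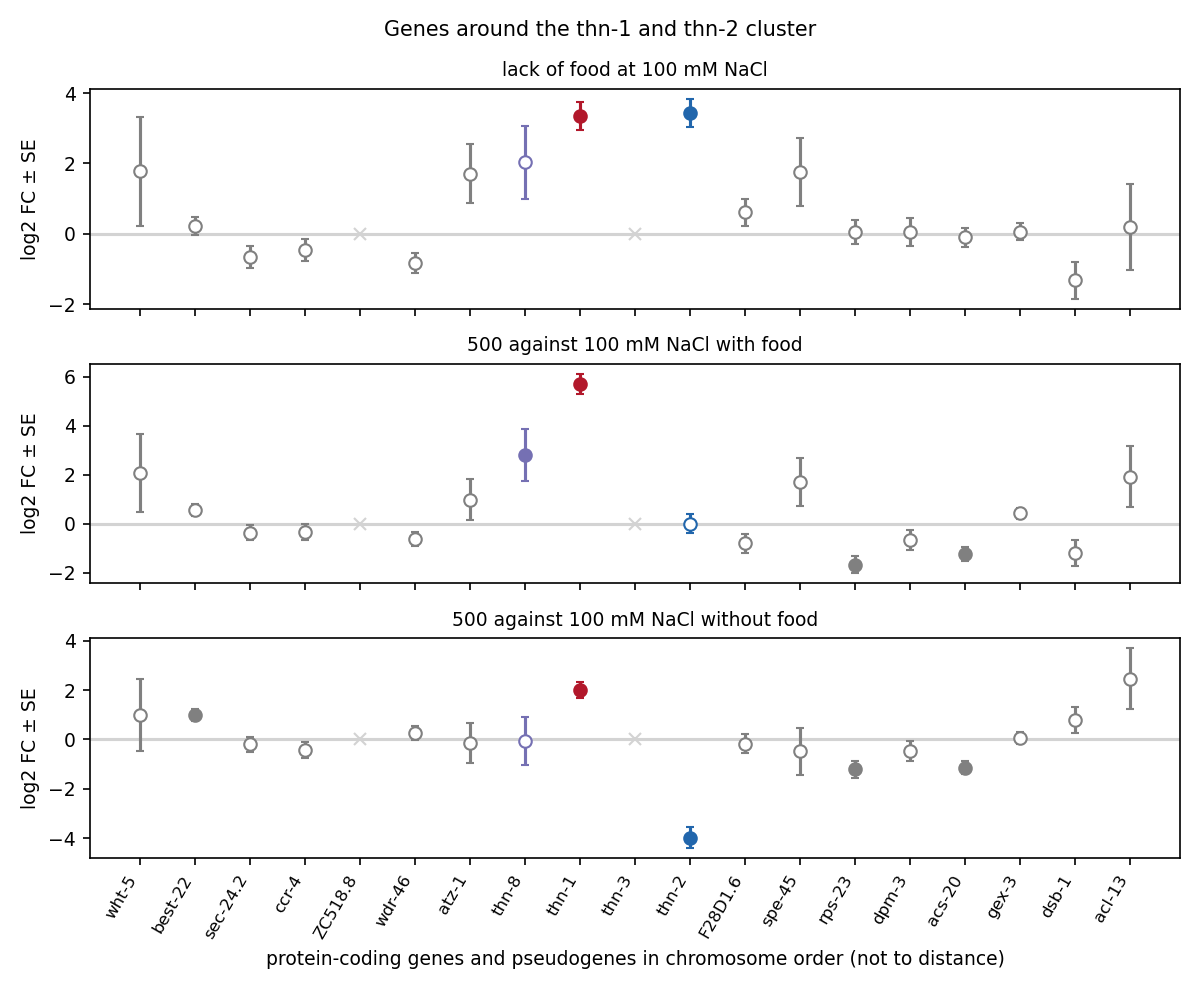
Log2 fold change of the genes along the run on chromosome IV, in gene order, with a panel for each comparison and a y axis for each panel. Filled symbols have an adjusted p under 0.05, open symbols have a larger one, and a cross marks a gene not tested. For lack of food at 100 mM NaCl thn-1 and thn-2 stand at 3.35 and 3.43, the pseudogene thn-8 at 2.03 without a call, and the genes outside the family at most at 1.77.

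The genes most like each of the pair were found by Pearson's r of log2 CPM over 12 libraries, compared across the 8476 genes that averaged 10 CPM or more. For thn-1 they were fbxa-152, an F-box gene (r = 0.976), hil-7, a linker histone gene (0.970), nsy-7 and ast-1, which encode transcription factors (0.967 each), and gpx-3, a glutathione peroxidase gene (0.965). fbxa-152 had 3.81 ± 0.594 and 9.55 ± 1.58 CPM in fed and unfed low-salt larvae, and 30.2 ± 9.06 and 23.7 ± 6.87 CPM in fed and unfed high-salt larvae, the order of groups that thn-1 had. hil-7 had the same order, from 16.5 ± 3.05 to 169 ± 37.5 CPM, and so had ast-1, with 37.8 ± 3.19 CPM in fed and 36.3 ± 3.44 CPM in unfed high-salt larvae. nsy-7 and gpx-3 had the high-salt groups in the other order. The fed and unfed values were 26.05 ± 2.74 and 29.4 ± 3.56 CPM for nsy-7, and 31.99 ± 8.05 and 39.4 ± 6.11 CPM for gpx-3.

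For thn-2 they were C10B5.3 (r = 0.917), hpo-15 (0.912), flp-13, an FMRFamide-like neuropeptide gene (0.898), daf-7, which encodes a TGF-beta ligand of the dauer pathway (0.893), and F10D7.5 (0.892). flp-13 had 101.5 ± 24.1 CPM in unfed low-salt larvae and means of 41.4 to 43.3 CPM in the other groups. daf-7 had 145 ± 6.58 CPM in unfed low-salt larvae, 70.7 ± 20.2 in fed ones, and 45.98 ± 5.74 and 35.7 ± 6.21 in fed and unfed high-salt larvae. These values describe likeness over libraries that share their groups.

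Other genes of host defence were set beside the pair. Of 40 intestinal antimicrobial effectors, such as lysozymes and saposin-like proteins, 39 were tested. On lack of food at 100 mM NaCl 5 rose and 5 fell, or 25.6% called beside 7.68% of all genes (median log2 fold change -0.15, against 0.15 over all genes). Among those that rose was ilys-3, an invertebrate-type lysozyme gene, from 0.680 ± 0.425 to 33.8 ± 22.1 CPM, by 5.75 ± 1.07 (adjusted p = 0.00924). Its call was lost without fed low-salt B (0.0800), fed low-salt C (0.0708) or unfed low-salt B (0.0579). Its level was 0.569 ± 0.394 CPM in fed and 0.710 ± 1.18 CPM in unfed high-salt larvae, so, as for thn-2, the unfed low-salt group was the high one. dod-19, irg-5 and the lysozyme gene lys-2 fell, dod-19 from 608 ± 147 to 51.7 ± 47.2 CPM. The 10 calls became 5 without fed low-salt B, 3 without fed low-salt C, 5 without unfed low-salt B and 17 without unfed low-salt C. Over all genes the 1384 calls became 218, 306, 220 and 2179 in the same order.

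With salt, most effectors fell while thn-1 rose. With food 1 rose and 28 fell, or 74.4% beside 38.3% of all genes (median -2.58, against 0.12 over all genes). Without food 1 rose and 22 fell, or 59.0% beside 17.9% (median -2.10, against 0.08). With salt and food lys-2 fell by 6.03 ± 0.54 on the log2 scale, from 199 ± 51.7 to 2.89 ± 1.35 CPM. With salt and no food the saposin-like gene spp-2 fell from 81.8 ± 34.5 to 1.0996 ± 0.441 CPM (log2 fold change -6.199 ± 0.516).

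A list of 27 genes held regulators of innate immunity, from the p38 MAP kinase pathway to intestinal and pharyngeal transcription factors. The infection response gene irg-1 was counted with them, and 26 of the 27 were tested. Their called shares lay near those of all genes for lack of food (7.69% beside 7.68%) and for salt with food (34.6% beside 38.3%), and were 26.9% beside 17.9% for salt without food. On lack of food at 100 mM NaCl 2 fell, which were irg-1, an infection response gene, and egl-9, the prolyl hydroxylase of the hypoxia pathway. Both calls were lost without any of the fed low-salt replicates and without unfed low-salt A or B, and 1 was left without fed high-salt A or B. Calls over all genes fell from 1384 to between 218 and 376 in the fits that lost both. They fell to 975 and 889 without fed high-salt A and B. With salt and food 6 rose and 3 fell. With salt and no food 5 rose and 2 fell. The 7 calls became 4 without unfed low-salt C, where calls over all genes went from 3230 to 2212. The kinase gene nsy-1 rose with salt and food by 1.38 ± 0.30 (adjusted p = 0.00220), and pha-4, the organ-identity factor of the pharynx, by 1.84 ± 0.29 (adjusted p = 0.000164).

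Genes known to be raised by the insulin-pathway factor DAF-16 went both ways. Of 20 tested, 4 rose and 2 fell on lack of food at 100 mM NaCl, 6 rose and 8 fell with salt and food, and 4 rose and 8 fell with salt and no food. The called shares were 30%, 70% and 60%, beside 7.68%, 38.3% and 17.9% of all genes. The medians were 0.60, -1.20 and -0.46, beside 0.15, 0.12 and 0.08. The 6 calls on lack of food became 3 without fed low-salt A, 1 without fed low-salt B, 2 without fed low-salt C, 2 without unfed low-salt A and 1 without unfed low-salt B. Over all genes the 1384 calls became 376, 218, 306, 333 and 220 in the same order. sod-3, a mitochondrial superoxide dismutase gene, was low at both food levels in 100 mM NaCl (1.35 ± 0.141 and 2.85 ± 2.08 CPM) and rose with salt and food to 51.9 ± 26.4 CPM, by 5.26 ± 0.62 (adjusted p = 2.89e-05). mtl-2, a metallothionein gene, was highest in unfed low-salt larvae at 19.4 ± 4.12 CPM, the group where thn-2 was high, and lowest in unfed high-salt larvae at 1.48 ± 0.468 CPM. fat-5, a fatty-acid desaturase gene, was the one of the 20 that rose on lack of food at 500 mM NaCl, by 2.25 ± 0.31 (adjusted p = 0.00890). That call was lost without fed high-salt A (0.0829), B (0.113) or C (0.0522). It made 5% of the 20 called, beside 0.0777% of all genes for that comparison. Calls over all genes went from 14 to 2, 0 and 0 in these fits.

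Markers of several tissues moved with the same comparisons. The summed level of 12 intestine markers was 7280 to 8186 CPM with food and 4101 to 8152 CPM without at 100 mM NaCl. At 500 mM NaCl it was 1992 to 2340 CPM with food and 1664 to 2794 CPM without. Of these 12, 1 rose and 9 fell with salt and food, 1 rose and 10 fell with salt and no food, and 1 rose and 1 fell on lack of food at 100 mM NaCl. The called shares were 83.3%, 91.7% and 16.7%, beside 38.3%, 17.9% and 7.68% of all genes. The sum of 12 pharynx markers was 1384 to 2389, 2355 to 3368, 6096 to 8646 and 2679 to 7124 CPM in the same order of groups, with 7 called higher and 4 lower for salt with food (91.7% beside 38.3%). The sum of 5 germline markers was 305 to 378 CPM in fed and 48.9 to 116 CPM in unfed low-salt larvae, and 48.2 to 64.1 CPM over the high-salt libraries. Of these, 4 were called lower for lack of food at 100 mM NaCl (80.0% beside 7.68%), where both thn genes rose, and 4 for salt with food (80.0% beside 38.3%). The sum of 11 epidermis markers was 1537 to 2776 CPM in fed and 1494 to 3029 CPM in unfed low-salt larvae, then 464 to 603 and 408 to 472 CPM in fed and unfed high-salt larvae, with 3 called higher and 5 lower for salt with food (72.7% beside 38.3%). Neuron markers summed to 1294 to 1531 CPM in fed and 2137 to 2902 CPM in unfed low-salt larvae, and body wall muscle markers to 7599 to 11535 and 3494 to 6666 CPM, of which hlh-1 was at 0 throughout. Excretory and coelomocyte markers summed to 360 to 431 CPM and 260.2 to 302 CPM in these groups. In fed and unfed high-salt larvae the sums were 1908 to 2253 and 1302 to 2510 CPM for neuron markers. They were 9900 to 12859 and 5367 to 9553 CPM for muscle, and 281 to 308 and 209 to 315 CPM for excretory and coelomocyte markers. On lack of food at 100 mM NaCl 2 of 9 neuron markers were called higher (22.2%). Of 6 muscle markers tested 1 was called lower (16.7%), and 1 of 5 excretory and coelomocyte markers (20%), beside 7.68% of all genes. For salt with food the called shares were 22.2%, 33.3% and 60%, beside 38.3%. The part of tissue makeup in the changes of thn-1 and thn-2 was not tested, and the tissue that expresses either gene cannot be read from whole larvae.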

How the data were processed

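Messenger RNA of whole L1 larvae was sequenced as 12 libraries without strand information, per the labels' protocols. The authors deposited unnormalised read counts for each gene and library. The submitters' processing notes name Bowtie 1.1.2, HTSeq, Cuffdiff and edgeR. HTSeq settings and the build are not given in the sources used here, so no coordinates are printed. The authors' deposited workbook adds edgeR exact-test sheets, which give a log2 fold change, log2 mean CPM, p-value and false discovery rate per gene. Its count sheet differed from the files in 0 cells.

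Symbols came from the RefSeq table of WBcel235, which named 43592 of 44968 features, and exon lengths from the Ensembl annotation of that assembly. Promoter and protein sequences were not analysed here. In R 4.3.3 with edgeR 4.0.16, filterByExpr (minimum count 10, minimum total 15) left 18028 genes, rRNA genes included. All 12 libraries, TMM-scaled, entered 1 robust quasi-likelihood fit with 1 coefficient per group, tested two-sided, with Benjamini-Hochberg adjustment per comparison. The SE is the size of the log2 fold change divided by the square root of F. Log2 CPM for likeness used a prior count of 2. Alternatives included DESeq2 1.42.0. The steps were tested on simulated data.

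The members and gene lists were chosen with earlier results of these data known. Named genes are all thn genes, the 5 most like each tested member, neighbours, and up to 4 genes of each list with the smallest p per comparison of 1 factor; the text names part of them. P-values set each change against the spread between biological replicates, which was estimated over all 4 groups together and not for each group by itself. No pair of libraries held identical counts.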

Additional observations from a re-analysis of the deposited data

Results flagged for a closer look

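The effect of lack of food differed between salt levels for both genes by the test of the interaction itself. For thn-1 the difference was -3.72 on the log2 scale, with 3.35 at 100 mM and -0.37 at 500 mM NaCl. For thn-2 it was -3.99, with 3.43 and -0.56. In both genes all 3 unfed libraries were above all 3 fed ones at 100 mM NaCl, and the groups overlapped at 500 mM NaCl.

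The pseudogenes thn-3 and thn-8 gave more than the range of fed low-salt larvae in every library of some groups, thn-3 in 1 group and thn-8 in 3. thn-3 reached a mean of 0.422 CPM in fed high-salt larvae, from 17 reads. thn-8 had 0.611 CPM in unfed low-salt, 1.07 CPM in fed high-salt and 0.575 CPM in unfed high-salt larvae, from 37, 41 and 30 reads. Whether these reads belong to the pseudogenes or to thn-1 and thn-2 was not tested.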

How the results depend on the processing

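Both genes kept their calls and non-calls in each comparison under the 23 alternative settings that gave a value, 12 of which leave out 1 library each. Of 272 fold changes, 263 kept their direction, and the other 9 were those of thn-2 for salt with food: 0.01 as reported, -0.23 with no count filter, -0.24 to 0.15 when a library was left out, and at most 0.40 under the other settings. Mean CPM moved with the scaling, and with no TMM factor thn-1 in fed high-salt C (5.52) fell under the unfed low-salt libraries (7.19 to 7.89): without TMM factors thn-1 in unfed low-salt larvae was 7.43, and with rRNA genes also left out of the total it was 7.97. Under the latter total thn-1 was 47.2 in fed and 38.2 in unfed high-salt larvae, and thn-2 was 5.40 and 4.10. Of the 5 most like genes, Spearman's rho shared 1 for thn-1 and 0 for thn-2. Upper-quartile factors moved the median of all genes to 0.36 (lack of food at 100 mM NaCl) and 0.55 (salt with food). The calls among the antimicrobial effectors, immune regulators and DAF-16 genes moved more. When a library was left out they numbered 3 to 17, 0 to 3 and 1 to 8 (lack of food at 100 mM NaCl), and 4 to 10 of the regulators were called for salt without food. Calls over all genes then ranged from 218 to 2989 for lack of food and from 2212 to 4209 for salt without food. Fits of only 2 groups gave 15 effectors for salt without food, 4, 15 and 3 regulators for lack of food, salt with food and salt without food, and 10 DAF-16 genes for lack of food. Over all genes these fits called 3524 of 15118 for lack of food and 8551 of 14758 for salt with food. For salt without food they called 1811 of 16844. With no count filter 17 effectors were called for lack of food, with upper-quartile factors 1 regulator was called for it and 14 for salt with food, and without both doubtful high-salt libraries 12 regulators were called for salt without food. Calls over all genes were 1665 of 33467, 1647 and 7455 of 18028, and 4619 of 18267 in that order. Whether replicate letters pair the libraries is not settled. Correlations of log2 CPM less the group mean were -0.094 to 0.352 between same-letter libraries of different groups, with 7 of 18 over 0.1. Between libraries of other letters they were -0.332 to 0.225. With the letter as a block, 2, 1, 2, 0, 2 and 2 of thn-1 and thn-2 were called in the 6 comparisons, as without it. Calls over all genes rose with the block, for example from 1384 to 1673 for lack of food at 100 mM NaCl. The exact test and fits of only 2 groups give no interaction. Depth limits thn-3 to thn-7 and the 9 to 40 reads of thn-1 in fed low-salt libraries.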
